A study of Homo sapiens with 12 samples.

Results

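The constitutive proteasome subunit genes are the genes that encode the 20S core particle, the 19S regulatory particle, the alternative activators, the proteasome inhibitor and the assembly chaperones. They were chosen by name, as every array probe whose gene symbol begins with PSMA to PSMG followed by a number, and the interferon-inducible PSMB8, PSMB9 and PSMB10 were left out. The array carried 70 such probes for 45 genes among 47228 gene probes. A probe was tested when its detection p-value was under 0.05 in at least 2 of the 12 arrays, and 63 probes of 43 genes passed among 24207 tested in all. PSMA8, a testis-specific alpha subunit, and PSMB11, a thymus-specific beta subunit, did not pass, and neither did 3 probes for PSMD12, 1 for PSMD4 and 1 for PSMF1, genes that kept another probe. No measured change entered this rule, though the set was chosen with earlier results of these data known.

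The proteasome degrades proteins tagged with ubiquitin. Its barrel-shaped core is built from alpha rings, which gate the entry, and beta rings, which hold the proteolytic sites, while the regulatory particle binds ubiquitin chains, removes them and unfolds the substrate with a ring of ATPases. Expression of the subunit genes is known to be coordinated by the transcription factor NFE2L1, and interferon exchanges the catalytic subunits for PSMB8, PSMB9 and PSMB10 and raises the activator genes PSME1 and PSME2.

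RNA was measured in MIA PaCa-2 and Capan-1, established human pancreatic ductal adenocarcinoma cell lines, after induction of a short hairpin RNA. Each line carried shCtrl, a control hairpin, or sh1209 or sh1319, which target PTK2, the gene for Focal Adhesion Kinase (FAK). All cells, the controls included, carried a doxycycline-inducible vector, were selected with puromycin, at 3.5 ug/ml in the MIA PaCa-2 line and at 1.5 in the other, and received doxycycline at 50 ng/ml for 96 hours. The 6 groups had 2 arrays each, and since nothing says whether those came from separate cultures, the p-values measure only the spread between arrays, which may be technical.

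Values are normalized log2 intensities, on which a difference of 1 is a doubling. They compare a probe with itself between groups, and not a gene with another gene. The median deposited intensity per array was 87.7 to 97.0, and 16259 to 19814 probes were detected per array. The number of arrays limits the precision. Vimentin (VIM), a mesenchymal marker, was detected in every MIA PaCa-2 array by both of its probes and in every Capan-1 array by 1 of them, and the epithelial markers EPCAM and CDH1 were detected in 2 and 0 of the 6 MIA PaCa-2 arrays and in all 6 Capan-1 arrays. The keratins KRT8 and KRT18 were detected in all 12 arrays and KRT19 in 4 of the 6 of MIA PaCa-2, and the immune marker PTPRC in 1 array at most for each of its 4 probes. In MIA PaCa-2, KRT19 changed by -1.44 with sh1209 and -1.47 with sh1319, and KRT8 by -1.09 and KRT18 probe 110431 by -0.80 with sh1319, past the threshold. In Capan-1, CDH1 rose by 0.63 and the endothelial marker PECAM1 by 0.57 with sh1209. With sh1319 there, VIM probe 830593 rose by 0.47 and the fibroblast marker LUM by 0.57, all past the threshold. No tested marker was called lower in Capan-1. The part of these markers in the results on the proteasome genes was not tested. Of the probes for PTK2, probe 450253 changed in MIA PaCa-2 by -2.24 with sh1209 and -2.48 with sh1319, and in Capan-1 by -0.61 and -1.78 (SE 0.11 each). The change of -0.61 did not pass the threshold when arrays were scaled by their median (adjusted p = 0.23). The other PTK2 probe, 2680750, was dim in MIA PaCa-2, where it read 5.16 and 4.92 with shCtrl, and passed the threshold in no pair.

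In each of the 4 pairs of hairpin and cell line, most proteasome probes did not pass the test for a change with FAK knockdown. Compared to shCtrl, the median change of the 63 probes in MIA PaCa-2 was -0.07 for sh1209 and -0.03 for sh1319. It was 0.05 and -0.01 in the Capan-1 pairs. A change was called where the adjusted p of limma's moderated test, taken over all 24207 probes, was under 0.05. With sh1209 in MIA PaCa-2, 4 proteasome probes were called higher and 11 lower, against 9.05% and 8.99% of all probes tested, and when arrays were scaled by their median the split was 0 higher and 9 lower. With sh1319 in MIA PaCa-2, 6 were called higher and 12 lower, against 12.2% and 12.1% of all probes. The members lower in these pairs were 17.5% and 19% of the 63, and among the 11541 probes detected in all arrays, as 59 of the 63 were, 14% and 19.1% were lower. In Capan-1, 9 were called higher and 2 lower with sh1209, against 8.14% and 8.69% of all probes, and median scaling left 4 higher and 0 lower. With sh1319 in Capan-1 only 2 probes were called, both lower and both for PSMA1, against 6.95% of all probes higher and 6.77% lower. Without background correction 12 were called, with a background offset of 50 there were 10, and over probes detected in all arrays 7. Median scaling called 1 higher and 1 lower there, and it moved the median of all probes by 0.11.

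Most calls belonged to a single pair. Of the 63 probes, 28 were called in no pair, 25 in 1, 9 in 2 and 1, for PSMG3, in 3, and none was called in all 4. Of the 43 genes, 25 had a call in at least 1 pair. Among the probes, 55.6% were called in at least 1 pair, compared with 43.7% of all probes tested. Probes detected in all arrays, as most members were, were called more often in each pair than all probes tested. Their share called in at least 1 pair was not computed, so the members were not set against probes of like brightness. The pairs of 1 cell line share their shCtrl arrays. In the mean of the 4 pairs, 4 proteasome probes were called higher and 13 lower, against 12.5% and 12.7% of all probes, with a median of -0.02. Among probes detected in all arrays, 20.5% were lower, near the 20.6% of the members. This split became 4 higher and 3 lower with median scaling. In RNA of whole cultures, fewer cells of a type and less RNA per cell cannot be told apart.

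**Figure D1:**
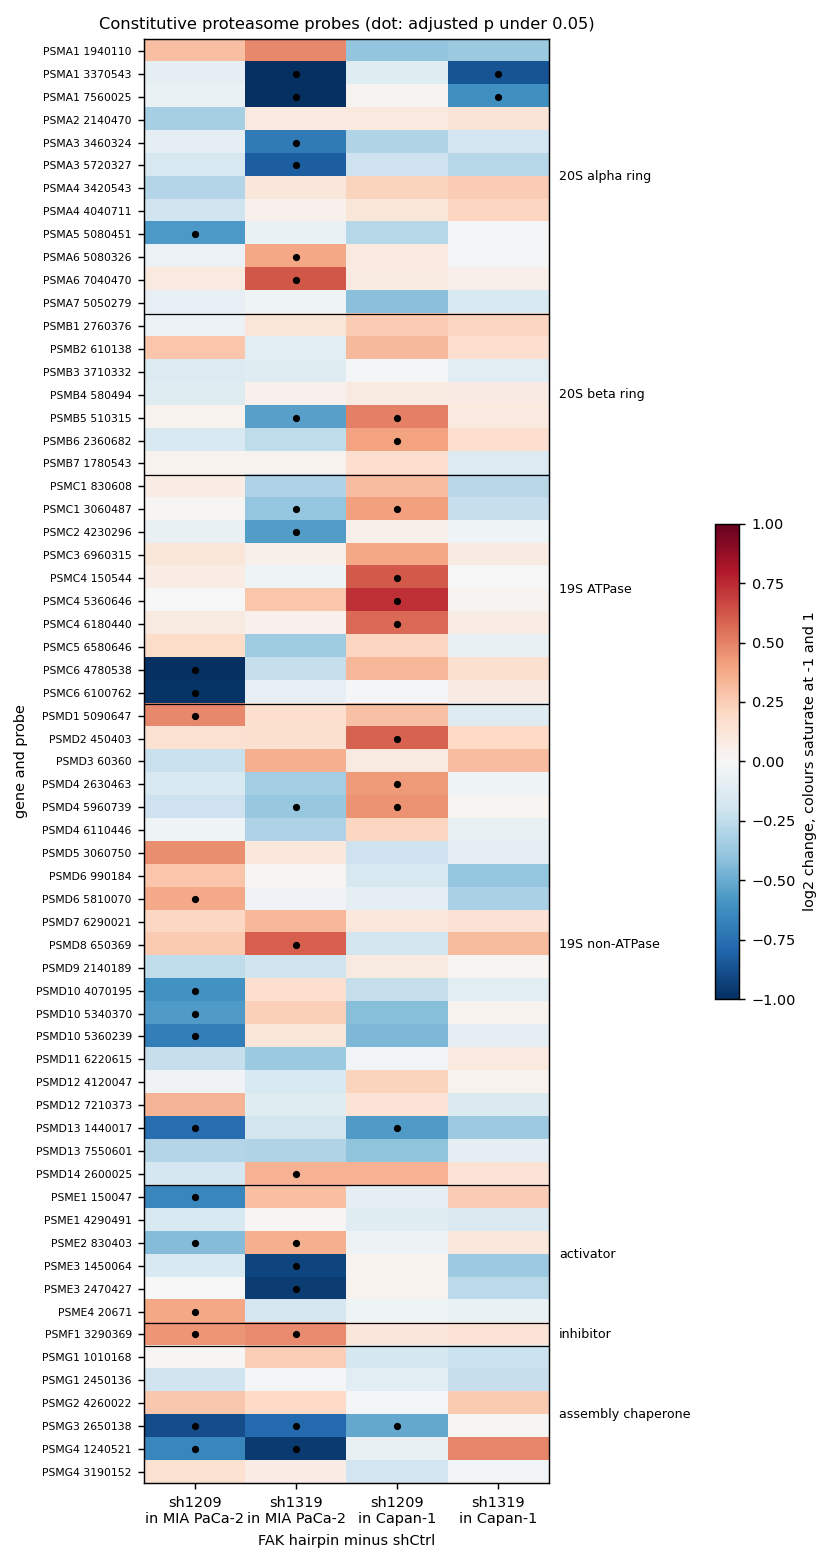
Log2 change (colour, saturating at -1 and 1) of each of the 63 proteasome probes (rows, grouped by their place in the complex) with each FAK hairpin compared to shCtrl of the same cell line (columns). Dots mark adjusted p under 0.05: the dark cells of PSMA1 lie in the sh1319 columns, those of PSMC6 and PSMD10 in the sh1209 column of MIA PaCa-2, and 28 rows hold no dot.

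Among the alpha ring genes, PSMA1 had the largest change of all proteasome genes in the 4 pairs. It encodes an alpha subunit of the core particle, and it fell with sh1319 in both cell lines. In MIA PaCa-2, PSMA1 probe 3370543 read 9.88 and 10.12 with shCtrl, 10.00 and 9.82 with sh1209, and 7.67 and 7.49 with sh1319. In Capan-1 it read 9.63 and 9.60 with shCtrl, 9.45 and 9.52 with sh1209, and 8.68 and 8.82 with sh1319. The sh1319 arrays lay below all other arrays of the same line, while the sh1209 and shCtrl arrays overlapped in MIA PaCa-2. With sh1319, PSMA1 fell by 2.42 ± 0.13 (SE) in MIA PaCa-2, to 18.6% of the control level (adjusted p = 1.5e-07), and by 0.86 ± 0.13 in Capan-1, to 55.1% (adjusted p = 0.0012). In MIA PaCa-2 this was the change ranked 31 from the lowest of 24207, and in Capan-1 it ranked 330.

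The second bright PSMA1 probe, 7560025, was likewise lowest in the sh1319 arrays of each line. In MIA PaCa-2 it read 11.79 and 11.72 with shCtrl, 11.80 and 11.56 with sh1209, and 9.66 and 9.71 with sh1319. In Capan-1 it read 11.45 and 11.28, 11.36 and 11.42, and 10.66 and 10.84. It fell by 2.06 ± 0.13 with sh1319 in MIA PaCa-2 (adjusted p = 4.3e-07) and by 0.61 ± 0.13 in Capan-1 (adjusted p = 0.0077). The Capan-1 call of this probe was lost with median scaling and without shCtrl replicate 1 or sh1319 replicate 1, when its highest adjusted p was 0.16, whereas probe 3370543 held in all 19 alternatives. Another PSMA1 probe, 1940110, was detected in 3 of 12 arrays and was called in no comparison.

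With sh1209, PSMA1 changed by -0.09 and -0.07 in MIA PaCa-2 and by -0.12 and 0.03 in Capan-1, with 95% intervals for probe 3370543 of -0.37 to 0.19 and -0.41 to 0.16. The hairpins were therefore compared directly. PSMA1 was lower with sh1319 than with sh1209 by 2.33 and 2.00 in MIA PaCa-2 (adjusted p = 3e-07 and 7.3e-07) and by 0.74 and 0.64 in Capan-1 (adjusted p = 0.0035 and 0.0071). PTK2 probe 450253 did not differ beyond the threshold between the hairpins in MIA PaCa-2 (-0.24, adjusted p = 0.17), and was lower with sh1319 in Capan-1 (-1.16). The other PTK2 probe, 2680750, dim in MIA PaCa-2, was called lower with sh1319 there (-0.59, adjusted p = 0.021) and not in Capan-1 (5e-04). The PTK2 probes thus disagree on whether the hairpins differed. In all, 472 probes were called lower with sh1319 than with sh1209 in both lines, which share no arrays. These were 17% of the MIA PaCa-2 list and 33.5% of the Capan-1 list. Of them 5 were proteasome probes, those of PSMA1, PSMB5 and PSMC1, or 7.94% of the 63 against 1.95% of all probes tested. With median scaling, only PSMA1 probe 3370543 of these 5 kept its call in Capan-1. The share among probes detected in all arrays was not computed. Another 453 probes (1.87%) were called higher with sh1319 in both lines, and 0 of them were proteasome probes. The part of the hairpin sequence in this difference was not tested.

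The other alpha subunits moved less, and not in one direction. PSMA3 probe 5720327 read 10.38 and 10.56 with shCtrl and 9.52 and 9.78 with sh1319 in MIA PaCa-2. Its probes fell by 0.82 and 0.71 with sh1319 (adjusted p = 0.0022 and 0.0021), without overlap between these groups, and read -0.16 and -0.10 with sh1209. PSMA6 rose with sh1319 in the same cells, from 11.95 and 11.83 to 12.50 and 12.52 for probe 7040470, a change of 0.62 ± 0.11 (adjusted p = 0.0011), and its other probe by 0.38 (adjusted p = 0.038), a call that was lost with median scaling, with array weights and without any 1 of the 4 arrays compared. PSMA5 fell with sh1209, from 12.41 and 12.32 to 11.81 and 11.78, a change of -0.57 ± 0.11 (adjusted p = 0.0043). PSMA2 and PSMA4 were called in no pair, and the PSMA7 probe was detected in 5 of 12 arrays. Of the 12 alpha ring probes, 4 were called lower and 2 higher with sh1319 in MIA PaCa-2, against 12.1% and 12.2% of all probes tested. With sh1209, 1 was called lower, against 8.99%.

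Of the 7 beta ring probes, 1 was called lower with sh1319 in MIA PaCa-2 and 2 higher with sh1209 in Capan-1, and none was called in the other pairs. Of all probes tested, 12.1% were called lower in the first of these pairs and 8.14% higher in the second. PSMB5, PSMB6 and PSMB7 encode the catalytic subunits with chymotrypsin-like, caspase-like and trypsin-like activity. PSMB5 read 11.43 and 11.44 with shCtrl, 11.43 and 11.52 with sh1209, and 10.85 and 10.94 with sh1319 in MIA PaCa-2. In Capan-1 it read 10.81 and 10.77, 11.27 and 11.32, and 10.83 and 10.94. PSMB5 thus fell by 0.54 ± 0.11 with sh1319 in MIA PaCa-2 (adjusted p = 0.0032) and rose by 0.51 ± 0.11 with sh1209 in Capan-1 (adjusted p = 0.0079). Neither call held with median scaling (adjusted p = 0.17 and 0.083), and the second was also lost without Capan-1 shCtrl replicate 2 or sh1209 replicate 2.

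PSMB6 read 11.36 and 11.27 with shCtrl and 11.71 in both sh1209 arrays of Capan-1, a change of 0.40 (adjusted p = 0.023) that was lost with median scaling and without any 1 of those 4 arrays. PSMB7 was called in no pair, and its changes ran from -0.13 to 0.17. The structural subunits PSMB1, PSMB2, PSMB3 and PSMB4 were called in no pair either, with changes between -0.13 and 0.32. With 2 arrays a group, SEs of a pair ran from 0.11 to 0.21 over the 63 probes, so smaller changes may have gone unseen.

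Among the ATPases of the regulatory particle, PSMC6 stood out in 1 pair and PSMC4 in another. PSMC6 probe 6100762 read 11.22 and 11.07 with shCtrl, 10.26 and 10.08 with sh1209, and 11.04 and 11.09 with sh1319 in MIA PaCa-2. In Capan-1 all 6 of its arrays lay between 11.07 and 11.27. The sh1209 arrays of MIA PaCa-2 lay below all others. PSMC6 fell by 0.98 ± 0.12 and 1.22 ± 0.18 with sh1209 in MIA PaCa-2 (adjusted p = 0.00015 and 0.00056), and both probes were higher with sh1319 than with sh1209, by 0.89 and 0.98 (adjusted p = 0.00018 and 0.0017).

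PSMC4 rose with sh1209 in Capan-1 by all 3 of its probes. Probe 5360646 read 9.19 and 9.07 with shCtrl, 9.88 and 9.84 with sh1209, and 9.13 and 9.18 with sh1319. The rise was 0.73 ± 0.12 (adjusted p = 0.0018) for this probe, and 0.61 and 0.57 for the other probes, whose calls were lost without shCtrl replicate 2 or sh1209 replicate 1, and for probe 6180440 also without shCtrl replicate 1 and with no filter. Probe 5360646 read 0.00 with sh1209 in MIA PaCa-2. PSMC1 probe 3060487 fell by 0.39 in MIA PaCa-2 with sh1319 and rose by 0.41 in Capan-1 with sh1209, PSMC2 fell by 0.56 with sh1319 in MIA PaCa-2, and all 3 calls were lost with median scaling. PSMC3 and PSMC5 were called in no pair.

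Of the 21 probes for the non-ATPase subunits of the regulatory particle and its chaperones, 4 were called lower and 2 higher with sh1209 in MIA PaCa-2. The shares were 8.99% and 9.05% of all probes tested, and 14% and 13% of those detected in all arrays. PSMD10, also called gankyrin, is a chaperone of the ATPase ring, and all 3 of its probes fell with sh1209 in MIA PaCa-2, by 0.61, 0.57 and 0.69. Probe 4070195 read 10.62 and 10.65 with shCtrl, 10.01 and 10.04 with sh1209, and 10.82 and 10.79 with sh1319. The groups did not overlap, and sh1319 exceeded sh1209 by 0.78, 0.81 and 0.81 (adjusted p = 3e-04, 0.0033 and 0.0014). The sh1209 call of probe 4070195 (adjusted p = 0.0024) held in all 19 alternatives, while those of the others were lost without sh1209 replicate 1, and that of probe 5340370 also without either shCtrl array or with median scaling. The PSMD10 probes read between -0.45 and -0.24 with sh1209 in Capan-1, where none was called.

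PSMD13, a lid subunit, fell with sh1209 by probe 1440017, from 7.61 and 7.68 to 6.92 and 6.85 in MIA PaCa-2 (-0.76 ± 0.13, adjusted p = 0.0022) and from 6.27 and 6.54 to 5.82 and 5.85 in Capan-1 (-0.57 ± 0.13, adjusted p = 0.013). The Capan-1 call was lost with median scaling (adjusted p = 0.39) and without shCtrl replicate 2 or either sh1209 array, and the second PSMD13 probe read -0.30 and -0.40 in these pairs without a call. PSMD2, a scaffold of the base, rose by 0.59 with sh1209 in Capan-1 (adjusted p = 0.011). PSMD4, a ubiquitin receptor, rose in that pair by 0.43 and 0.45 with 2 of its 3 probes, and PSMD4 probe 5960739 fell by 0.38 with sh1319 in MIA PaCa-2. PSMD8, a lid subunit, rose by 0.59 with sh1319 in MIA PaCa-2 (adjusted p = 0.019), and PSMD1, the other large scaffold of the base, by 0.48 with sh1209 (adjusted p = 0.032). The PSMD8 call was lost without shCtrl or sh1319 replicate 1, that of PSMD2 without shCtrl or sh1209 replicate 2, that of PSMD1 without any 1 of the 4 arrays compared, and those of PSMD4 with median scaling and without either array of the hairpin concerned. PSMD6, a lid subunit, rose by 0.38 with sh1209 in MIA PaCa-2 with 1 of its 2 probes, a call lost with median scaling, with array weights and without sh1209 replicate 1 or either shCtrl array. PSMD3, PSMD5, PSMD7, PSMD9, PSMD11 and PSMD12 were called in no pair, with changes from -0.37 to 0.46. PSMD14, the deubiquitinating subunit, was called higher only with sh1319 in MIA PaCa-2, by 0.35 (adjusted p = 0.043), and lost that call in 11 of 19 alternatives.

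**Figure D2:**
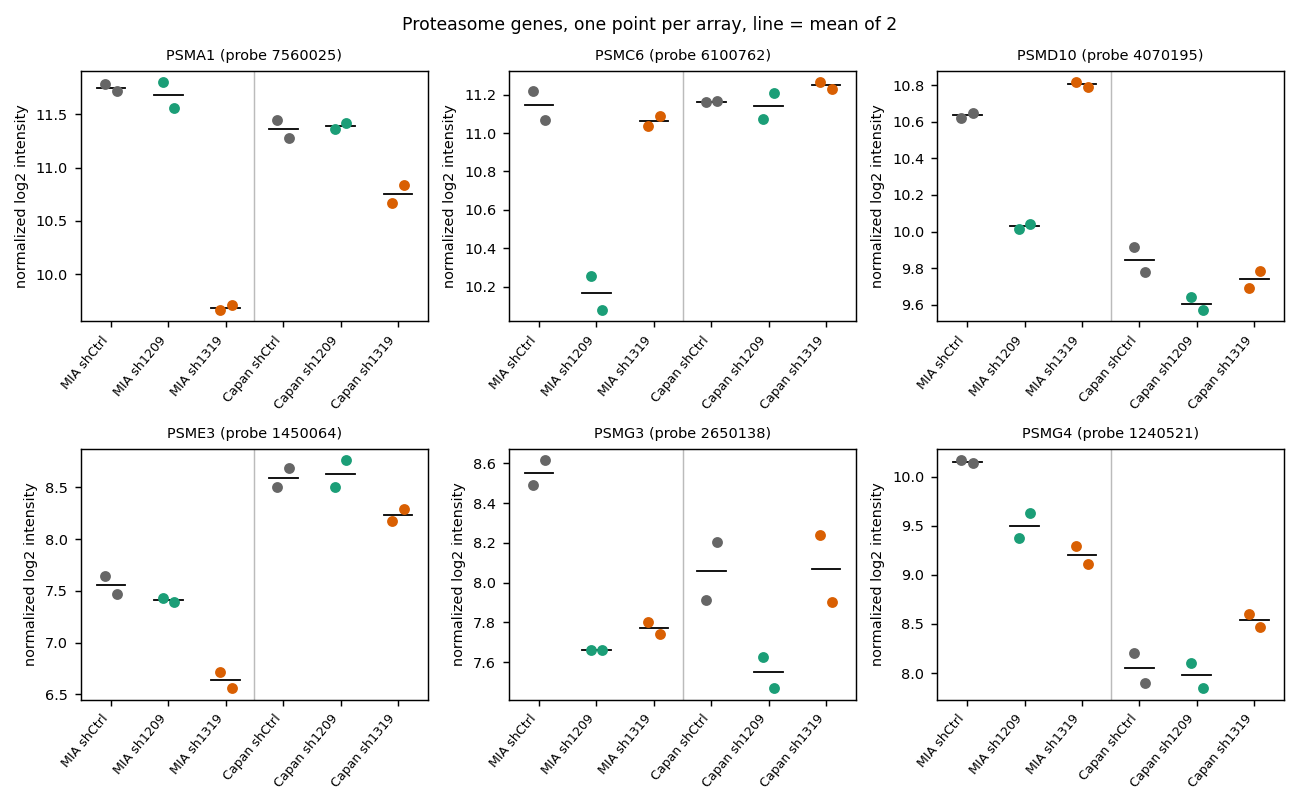
Normalized log2 intensity (vertical axis, its range set for each panel) of 6 proteasome genes in the 6 groups, with a point for each array and a line at the mean of 2. The brightest probe of each gene is shown: PSMA1 and PSME3 were low in the sh1319 arrays of MIA PaCa-2, PSMC6 and PSMD10 in the sh1209 arrays, and PSMG3 and PSMG4 in both.

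Activators open the core without the regulatory particle, and their genes followed different courses. PSME3 encodes a nuclear activator that is not induced by interferon. Its probe 1450064 read 7.65 and 7.47 with shCtrl, 7.43 and 7.39 with sh1209, and 6.71 and 6.56 with sh1319 in MIA PaCa-2. Its probes fell by 0.92 ± 0.13 and 0.95 ± 0.12 with sh1319 (adjusted p = 0.00036 and 0.00012). Both were lower with sh1319 than with sh1209, by 0.77 and 0.95. In Capan-1 they read -0.36 and -0.27 with sh1319, without a call. PSME4, which encodes another nuclear activator, rose by 0.38 with sh1209 in MIA PaCa-2 (adjusted p = 0.027), a call that was lost with median scaling and without any 1 of the 4 arrays compared.

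PSME1 and PSME2 encode the subunits of the interferon-inducible activator, and in MIA PaCa-2 they were low with sh1209 and high with sh1319. PSME1 probe 150047 read 10.86 and 10.93 with shCtrl, 10.16 and 10.32 with sh1209, and 11.12 and 11.28 with sh1319. PSME2 probe 830403 read 10.93 and 10.76, 10.41 and 10.41, and 11.21 and 11.19. For both genes the 3 groups did not overlap. PSME1 fell by 0.65 ± 0.12 with sh1209 (adjusted p = 0.0023) and read 0.30 with sh1319 (adjusted p = 0.074), and sh1319 exceeded sh1209 by 0.96 (adjusted p = 0.00011). PSME2 fell by 0.43 ± 0.11 and rose by 0.35 ± 0.11 (adjusted p = 0.021 and 0.041), calls that were lost in 4 and 10 of 19 alternatives, while the difference between the hairpins, 0.79 (adjusted p = 0.00038), held in all 19. In Capan-1 neither gene was called with either hairpin.

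The interferon-inducible subunits left out of the set had 7 tested probes. With sh1209 in MIA PaCa-2, 0 were called higher and 3, all for PSMB8, lower, against 9.05% and 8.99% of all probes tested. With sh1319 in the same cells 5, for PSMB8 and PSMB9, were called higher and 0 lower, against 12.2% and 12.1%. PSMB8 probe 3420632 read 5.86 and 5.76 with shCtrl and 7.33 and 7.41 with sh1319, and it was not detected in either array with sh1209. It was at least 2.21-fold lower with sh1209 than with shCtrl (adjusted p = 2.5e-05) and at least 6.52-fold higher with sh1319 than with sh1209 (adjusted p = 5.9e-08). PSMB8 probe 7210326 fell by 1.21 with sh1209 and rose by 1.74 with sh1319, while probe 4210706, near background, was called in no comparison. PSMB9 probe 1940180 read 5.89 and 5.79 with shCtrl, 5.19 and 5.63 with sh1209, and 7.15 and 7.11 with sh1319, and rose by 1.29 with sh1319 (adjusted p = 7.7e-05), while with sh1209 it changed by -0.43 (adjusted p = 0.072). PSMB10 was called in no comparison, and its changes in MIA PaCa-2 were 0.13 and 0.24. In Capan-1, PSMB9 probe 1940180 rose with both hairpins, by 0.64 and 1.03. The other PSMB9 probe, 6450692, rose by 0.81 with sh1209 (adjusted p = 0.049) and read 0.19 with sh1319 (adjusted p = 0.73). Of the 4 PSMB8 probes 2 rose with sh1209, by 0.43 and 0.47, calls that were each lost in 11 alternatives.

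**Figure D3:**
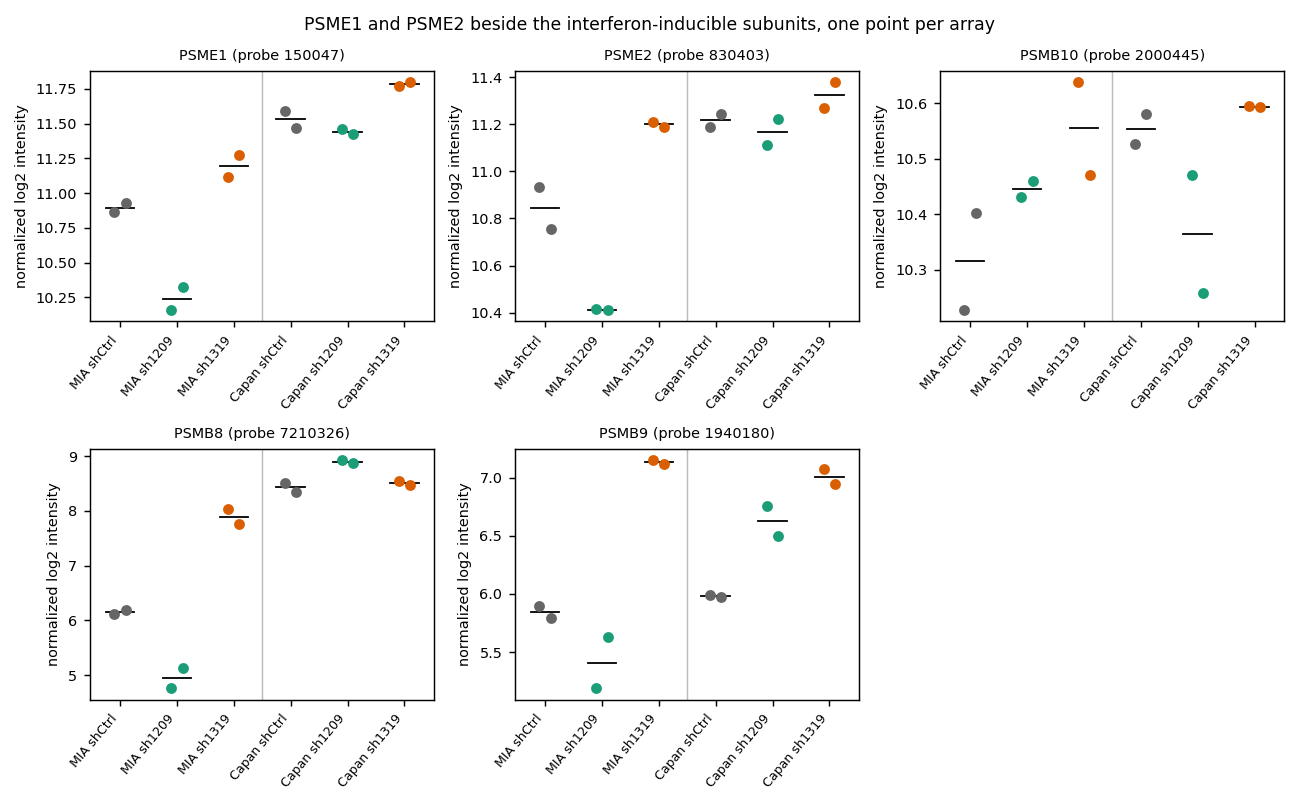
Normalized log2 intensity (vertical axis, its range set for each panel) of PSME1 and PSME2 and of the left-out PSMB10, PSMB8 and PSMB9 in the 6 groups, with a point for each array and a line at the mean of 2. In MIA PaCa-2 all but PSMB10 were lowest with sh1209 and highest with sh1319. For genes with several probes the brightest is shown.

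The promoters of these genes are shown because interferon acts through a short motif, and the members that moved alike can be set beside those that did not. RefSeq promoter windows of GRCh38.p14, from 250 bases before to 50 after a gene's start, were at hand for 39 of the 45 genes. The core of the interferon-stimulated response element, GAAANNGAAA on either strand, was found in those of 5 members (12.8%): PSMA4, PSMB4, PSME1, PSME2 and PSMG4. It was found in 4.38% of the 27305 genes with a window, and in PSMB8 and PSMB10 but not PSMB9. The match is in capitals, in the direction of the gene, so TTTC letters mark a match on the opposite strand.
PSME1: cctaccgcTTTCGCTTTCccttcgcg
PSME2: tggggagtGAAAGCGAAAgcccgggc
PSMG4: ccggggccGAAAGCGAAAgcgcgctc
PSMA4: agtgaagaGAAAATGAAAggagagcg
PSMB4: gtctacagGAAAAAGAAAgaaatgac
PSMB8: tctgtggcTTTCGCTTTCacttcctc
PSMB10: gtaaaggcGAAAGCGAAAgcaggaag
These stretches lie at chr14:24136191-24136216 (plus strand), chr14:24146621-24146646 (minus), chr6:3258906-3258931 (plus), chr15:78540157-78540182 (plus), chr1:151399497-151399522 (plus), chr6:32844034-32844059 (minus) and chr16:67936854-67936879 (minus). A match of letters is not a binding site. PSMB10, PSMA4 and PSMB4 hold the letters and were called in no pair, PSMG4 fell with both hairpins in MIA PaCa-2, and PSMB9 rose without holding them in this window.

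PSMF1, the proteasome inhibitor, rose with both hairpins in MIA PaCa-2. It read 8.60 and 8.52 with shCtrl, 9.12 and 8.89 with sh1209, and 9.04 and 9.02 with sh1319, and the shCtrl arrays lay below the rest. The rises were 0.45 ± 0.12 and 0.47 ± 0.12 (adjusted p = 0.021 and 0.012). The first was lost with median scaling and without either shCtrl array or sh1209 replicate 1, and the second without shCtrl replicate 2 or either sh1319 array. In Capan-1 the changes were 0.11 and 0.14. The mean over the 4 pairs was 0.29 ± 0.07 (adjusted p = 0.011), and this call held in all 19 alternatives.

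The assembly chaperones PSMG3 and PSMG4, partners in building the alpha ring, fell in MIA PaCa-2. PSMG3 read 8.49 and 8.62 with shCtrl, 7.66 in both sh1209 arrays, and 7.80 and 7.74 with sh1319. In Capan-1 it read 7.91 and 8.20, 7.63 and 7.47, and 8.24 and 7.90. The knockdown arrays lay below the controls in the first 3 pairs and not with sh1319 in Capan-1. PSMG3 fell by 0.89 ± 0.14 and 0.78 ± 0.14 in MIA PaCa-2 (adjusted p = 0.0013 and 0.0019) and by 0.51 ± 0.14 with sh1209 in Capan-1 (adjusted p = 0.032, and 0.56 with median scaling), a call also lost without shCtrl replicate 2 or either sh1209 array, and read 0.01 with sh1319 there. Its mean over the 4 pairs was -0.54 (adjusted p = 0.00094), which held in all 19 alternatives.

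PSMG4 probe 1240521 read 10.17 and 10.14 with shCtrl, 9.37 and 9.63 with sh1209, and 9.29 and 9.11 with sh1319 in MIA PaCa-2. In Capan-1 it read 8.20 and 7.90, 8.11 and 7.85, and 8.61 and 8.47. It fell by 0.65 ± 0.15 and 0.96 ± 0.15 in MIA PaCa-2 (adjusted p = 0.01 and 0.00062), the first of which was lost without sh1209 replicate 1 (adjusted p = 0.088), and read -0.08 and 0.49 in Capan-1 without a call. A second, dim PSMG4 probe was not called. PSMG1 and PSMG2, the other chaperone pair, were called in no pair of hairpin and cell line.

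The hairpins were also compared with each other over all classes, without the control arrays. Between sh1319 and sh1209, 15 proteasome probes were called higher with sh1319 and 14 lower in MIA PaCa-2, against 11.2% and 11.5% of all probes tested, or 16.8% and 18.5% of those detected in all arrays. Median scaling made this 12 higher and 4 lower. In Capan-1, 2 were called higher and 9 lower, against 5.47% and 5.81% of all probes (8.68% and 7.71% of those detected in all arrays), and median scaling left 0 higher and 1, PSMA1, lower. Whether these counts differ between the lines was not tested. Besides the genes above, PSMA6 was higher with sh1319 in MIA PaCa-2 by 0.53 (adjusted p = 0.0035), and PSMC4 probe 5360646 was lower with sh1319 in Capan-1 by 0.70 (adjusted p = 0.0032, and 0.06 with median scaling).

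**Figure D4:**
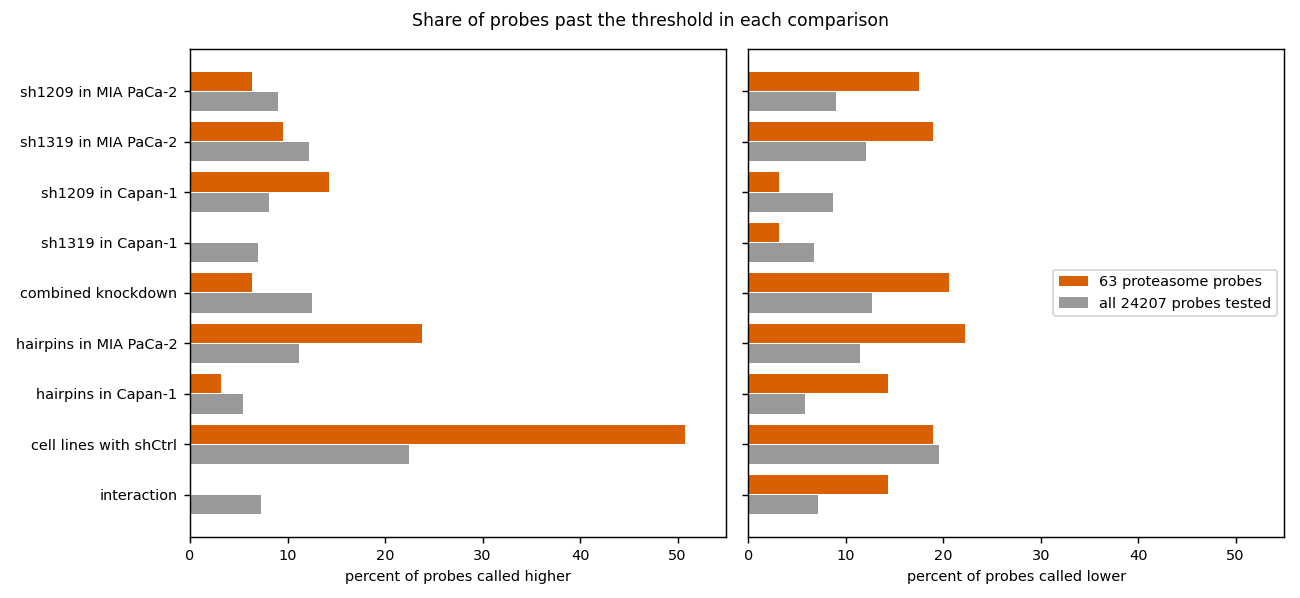
Percent of the 63 proteasome probes (orange) and of all 24207 probes tested (grey) that were called higher (left) and lower (right) in each of the 9 comparisons. The proteasome bar reaches 50.8% for probes higher in the MIA PaCa-2 controls than in those of Capan-1, against 22.5% of all probes, and is 0 for probes higher with sh1319 in Capan-1 and for the positive side of the interaction.

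The change with FAK knockdown was then compared between the lines, as the mean of both hairpins in MIA PaCa-2 minus that in Capan-1. None of the 63 probes had a more positive change in MIA PaCa-2 past the threshold and 9 had a more negative one, against 7.24% and 7.11% of all probes tested (10% and 8.6% of those detected in all arrays), with a median difference of -0.15. PSMG4 differed most (-1.01 ± 0.18, adjusted p = 0.0036), with mean changes of -0.80 (MIA PaCa-2) and 0.21 (Capan-1 cells). The PSMC6 probes differed by -0.97 and -0.56, and both bright PSMA1 probes by -0.77. PSMB5, PSMB6, PSMD4 and PSMG3 made up the rest. The calls of PSMG4 and PSMA1 held in all 19 alternatives, and those of the others did not. PTK2 itself fell further in MIA PaCa-2, by 1.17 (probe 450253), while its other probe differed by 0.47 without a call (adjusted p = 0.15).

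The cell lines themselves were compared by their control arrays. With shCtrl, 32 of the 63 probes were called higher in MIA PaCa-2 and 12 lower, against 22.5% and 19.6% of all probes tested, and the median difference was 0.31 compared with 0.04 for all probes. Among the probes detected in all arrays the shares were 35.4% and 22.1%. Median scaling gave 27 higher and 3 lower.

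The counts by class stand beside 22.5% higher and 19.6% lower of all probes tested (35.4% and 22.1% of those detected in all arrays). Whether the classes differ was not tested. Of the 21 non-ATPase probes 16 were called higher in MIA PaCa-2 and 1 lower, and of the 7 beta ring probes 5 were higher and 0 lower. The ATPases had 4 of 10 higher and 0 lower, the assembly chaperones 4 of 6 higher and 1 lower, and the alpha ring 3 of 12 higher and 5 lower. Of the 6 activator probes 0 were higher and 4 lower, and among these lower calls only those of PSME3 held in every alternative. PSMG4 showed the largest difference, at 10.17 and 10.14 in MIA PaCa-2 compared with 8.20 and 7.90 in Capan-1, or 2.10 ± 0.15. PSMG1 was higher by 1.12 and 1.25, PSMD13 by 1.24 and 1.22, both PSMC1 probes by 1.04, and PSMD9, a chaperone of the base, also by 1.04.

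The catalytic subunits were all higher in MIA PaCa-2, PSMB5 by 0.64, PSMB6 by 1.04 and PSMB7 by 0.76, as were the deubiquitinating subunit PSMD14 by 0.93 and all 3 PSMD10 probes by 0.72 to 1.01. PSME3 was the lowest, at 7.65 and 7.47 in MIA PaCa-2 compared with 8.50 and 8.68 in Capan-1 (-1.04 ± 0.13) and similarly by its other probe (adjusted p = 2.4e-05). PSME1 was lower by 0.64, PSMG2 by 0.62, PSME2 by 0.37 and PSMF1 by 0.43. Of the 12 lower calls, only 3, those of both PSME3 probes and of PSMG2, held in every alternative. Of the 32 higher calls, 26 did. PSMA7 was not detected in the MIA PaCa-2 shCtrl arrays and was at least 1.19-fold higher in Capan-1 (adjusted p = 0.018). PSMD12 was the only gene whose probes were called in opposite directions: probe 7210373 was higher in MIA PaCa-2 by 0.70 and probe 4120047 lower by 0.50, so no direction can be given for it. The puromycin dose also differed between the lines, and the difference of line and of dose cannot be told apart.

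**Figure D5:**
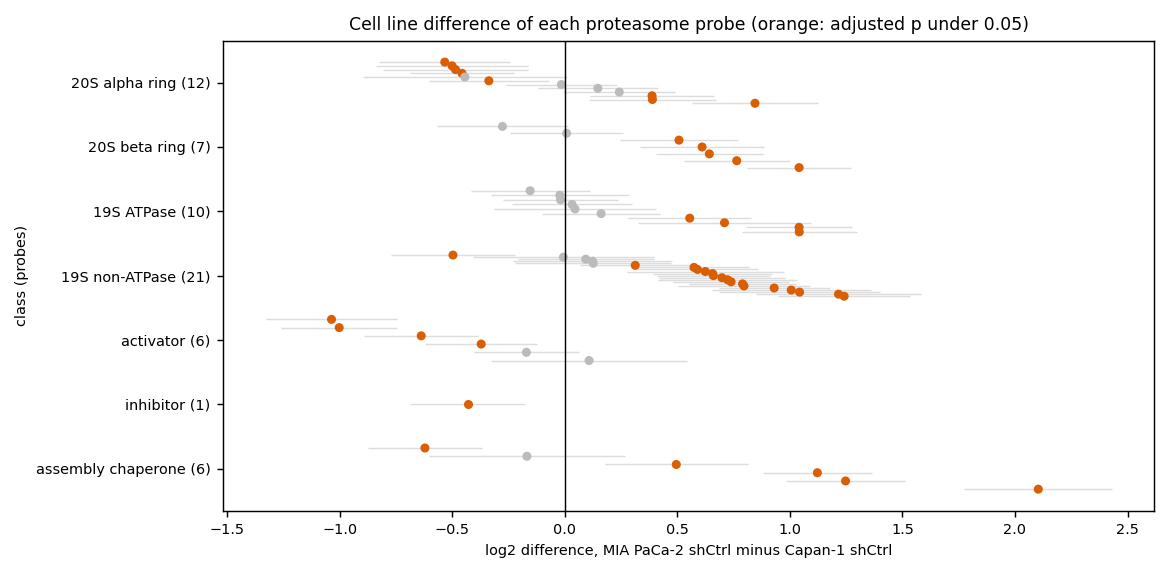
Log2 difference between MIA PaCa-2 and Capan-1 with shCtrl (horizontal axis, above 0 is higher in MIA PaCa-2) for each of the 63 proteasome probes by class (rows), with 95% intervals, and orange for adjusted p under 0.05. Non-ATPase, beta ring and ATPase points lie mostly above 0, activators mostly below, and PSMG4 lies furthest to the right at 2.10.

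Agreement between probes of 1 gene could be checked in 14 genes with more than 1 probe detected in all arrays. Over the 4 pairs the median spread of the log2 change between such probes was 0.10 and the largest 0.46. For PSMA1, PSMA3, PSMC6, PSMD10 and PSME3 every bright probe was called in the same pair of MIA PaCa-2.

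Genes that work with the proteasome were followed as lists, and the calls of NFE2L1 and the other genes on these lists were not rerun in the alternatives. NFE2L1, which raises proteasome gene expression when the proteasome is impaired, read 7.26 and 7.12 with shCtrl, 6.41 and 6.36 with sh1209, and 7.70 and 7.76 with sh1319 in MIA PaCa-2. In Capan-1 it read 7.40 and 7.31, 7.76 and 8.16, and 7.89 and 8.20. It fell by 0.80 with sh1209 in MIA PaCa-2 and rose by 0.54, 0.60 and 0.69 in the other pairs, all past the threshold. Of the 14 tested probes for the NFE2L1 pathway, 0 were called higher and 1 lower with sh1209 in MIA PaCa-2, and 1 and 2 with sh1319. The Capan-1 counts were 3 and 0 with sh1209 and 1 and 0 with sh1319. Of all probes tested, 9.05% were called higher and 8.99% lower with sh1209 in MIA PaCa-2, and 12.2% and 12.1% with sh1319. In Capan-1 these shares were 8.14% and 8.69% with sh1209 and 6.95% and 6.77% with sh1319.

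NFE2L1 binds the antioxidant response element, and its core, TGACNNNGC on either strand, was found in the windows of 14 of the 39 member genes (35.9%) and of 16.1% of all genes with a window. The 20 probes of these 14 genes had 2 higher and 2 lower calls with sh1209 in MIA PaCa-2, 1 and 0 with sh1319, and in Capan-1 3 and 0 with sh1209 and 0 and 0 with sh1319. The 35 probes of the other 23 genes with a window and a tested probe had 2 and 8, 5 and 10, 3 and 1, and 0 and 2. Of all probes tested, 9.05% and 8.99%, 12.2% and 12.1%, 8.14% and 8.69%, and 6.95% and 6.77% were called in the same order. No test was made of this split. PSMA4, PSMB3, PSMC5, PSMD3, PSMD5, PSMD9, PSMD12, PSMG1 and PSMG2 hold the core and were called in no pair. A match of letters is not a binding site, and those of PSMC4 and PSMD1 lie after the gene's start. The 5 genes that hold the core and were called in a pair are shown, the match in capitals and in the direction of the gene.
PSMC4: agaggccgGCTTGGTCActatggag
PSMD1: gaggcgacTGACTGAGCag
PSME1: ggcagggcTGACCCCGCctcctcca
PSME2: ctggactgTGACCCAGCcagcaccg
PSME4: cggcggctGCAGCGTCAccagcaga
They lie in GRCh38.p14 at chr19:39971184-39971208 (plus strand), chr2:231056898-231056916 (plus), chr14:24136100-24136124 (plus), chr14:24146769-24146793 (minus) and chr2:53971011-53971035 (minus).

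Of 22 probes for 16 proteasome partners, such as associated deubiquitinases, 1 was called higher and 4 lower with sh1209 in MIA PaCa-2, and 0 and 4 with sh1319. In Capan-1 it was 3 and 0 with sh1209 and 1 and 0 with sh1319. The shares of all probes tested were 9.05% and 8.99%, 12.2% and 12.1%, 8.14% and 8.69%, and 6.95% and 6.77%. POMP, the maturation factor of the core, was called in no pair.

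Of 11 probes for ubiquitin and its activating enzymes, 3 were called higher and 1 lower with sh1209 in MIA PaCa-2, and 3 and 0 with sh1319. In Capan-1 there were 2 and 0 with sh1209 and 1 and 0 with sh1319. Over all probes tested the shares were 9.05% and 8.99%, 12.2% and 12.1%, 8.14% and 8.69%, and 6.95% and 6.77%. UBA1, the main ubiquitin-activating enzyme, rose by 0.68 with sh1209 in MIA PaCa-2, from 9.62 and 9.75 to 10.35 and 10.39, and by 0.41 with sh1209 in Capan-1. The ubiquitin genes UBB and RPS27A were called in no pair.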

How the data were processed

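RNA (500 ng) of 12 samples was hybridised to Illumina HT-12 v4 arrays on 1 chip. Per probe and array, the authors deposited an intensity and a detection p-value, not normalized, exported by GenomeStudio 2011.1 per the submitters' processing notes. Of 47320 rows, 92 spike-in controls were left out, and 28 columns hold no values. Samples were grouped by their labels, with shFAK1319 in Capan-1 read as sh1319. Background was corrected with nec of limma 3.58.1 in R 4.3.3 (offset 16, from the detection p-values), followed by quantile normalization and log2. Probes with detection p under 0.05 in at least 2 of 12 arrays were tested (24207). limma fitted the 6 group means (6 residual degrees of freedom), and Benjamini-Hochberg adjustment ran over all probes within each of 9 comparisons at 0.05. The fit was tested on simulated data. A bound was given where a probe was not detected in a group, against the lowest detected signal of each array or the probe's own value, whichever was higher.

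The members and lists were chosen with earlier results of these data known. Named genes were PTK2, the catalytic subunits, up to 3 member probes with the largest called change in each direction per comparison, genes whose probes disagree, and PSME1 and PSME2 beside PSMB8, PSMB9 and PSMB10. Further members were named after their values were seen, to account for each class. Of the lists, 16 of 18 listed names of proteasome partners, 10 of 11 of the NFE2L1 pathway and all 6 of ubiquitin and its activating enzymes were on the array. Alternatives were background and scaling settings, filters, array weights, 1 probe per gene, a replicate block, each array left out, and the methods' test. The 19 alternatives counted for a single call leave out 1 probe per gene and the methods' test. By the methods' test 0 proteasome probes passed after adjustment in each pair and in both hairpin comparisons.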

Additional observations from a re-analysis of the deposited data

Results flagged for a closer look

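For 9 proteasome probes the change with the FAK hairpins, averaged over both hairpins, differed between MIA PaCa-2 and Capan-1 by limma's interaction test. The difference, MIA PaCa-2 minus Capan-1, was -1.01 for PSMG4 (adjusted p = 0.0036), -0.97 and -0.56 for the PSMC6 probes (adjusted p = 0.011 and 0.023), -0.77 for PSMA1 probe 7560025 and -0.77 for PSMA1 probe 3370543 (adjusted p = 0.0063 and 0.0076). It was -0.59 for PSMG3 (adjusted p = 0.047), -0.55 for PSMB5 (adjusted p = 0.017), -0.53 for PSMD4 (adjusted p = 0.031) and -0.49 for PSMB6 (adjusted p = 0.027). PSMG4, PSMB5, PSMB6, PSMD4 and PSMC6 had mean changes of opposite sign in the lines, for example -0.25 (MIA PaCa-2) against 0.30 (Capan-1) for PSMB5. PSMA1 and PSMG3 fell in the mean of both lines, PSMA1 probe 3370543 by 1.26 in the MIA PaCa-2 arrays and by 0.49 in those of Capan-1. No sample could be screened for an outlying value, since a group had 2 arrays.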

How the results depend on the processing

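No called change reversed its direction in any alternative. Of 156 called changes of proteasome probes, 67 stayed past the threshold in up to 19 alternatives, among them those of PSMA1 probe 3370543 with sh1319 in both lines and 29 of the 44 differences between the cell lines. The methods' t-test is not among these alternatives.

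By the number of proteasome probes called, with median scaling the MIA PaCa-2 pairs had 9 (sh1209) and 11 (sh1319), sh1209 in Capan-1 had 4, and there were 7 for the mean of the pairs, 16 and 1 between the hairpins in MIA PaCa-2 and Capan-1, and 5 for the interaction. Without background correction MIA PaCa-2 with sh1319 had 28, Capan-1 had 22 (sh1209) and 12 (sh1319), and there were 26 for the mean, 28 between the hairpins in Capan-1 and 19 for the interaction, and with an offset of 50 there were 18, 10, 25 and 16 for sh1209 and sh1319 in Capan-1, the hairpins in Capan-1 and the interaction. For sh1319 in Capan-1 it was 4 with no filter, 7 over probes detected in all 12 arrays, 4 with array weights and 1 with 1 probe per gene. Probes detected in all 12 arrays gave 20 between the hairpins in Capan-1. With 1 probe per gene, fewer probes could be called, and there were 7 for sh1209 in Capan-1, 10 for the mean, and 19 and 7 between the hairpins. The cause of the other shifts was not tested.

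The methods' t-test gave 15 for the cell lines and 0 for each of the 4 pairs and both hairpin comparisons after adjustment, with 15, 24, 13 and 7 for the pairs and 31 and 14 for the hairpins at an unadjusted p under 0.05. Leaving out 1 array gave 7 to 16 (sh1209) and 10 to 18 (sh1319) in MIA PaCa-2 (7 without sh1209 replicate 1, 10 without sh1319 replicate 1), 3 to 12 and 1 to 2 in Capan-1, 9 to 14 for the mean (9 without MIA PaCa-2 shCtrl replicate 2), 18 to 29 and 4 to 11 between the hairpins, 36 to 44 for the cell lines and 3 to 9 for the interaction (3 without MIA PaCa-2 shCtrl replicate 1). The lone array left was assumed to vary like the other groups. After quantile normalization, deviations of arrays with the same replicate number correlated at -0.061 to 0.16 over 15 pairs of groups. Before it, the deposited median intensity was higher in replicate 2 than in replicate 1 of every group. A replicate block gave 16, 16, 11 and 2 for the pairs, 16 for the mean, 28 and 10 between the hairpins, 42 for the cell lines and 8 for the interaction.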
